A study of Gossypium hirsutum with 24 samples.

Results

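The response of cotton bolls to bollworm was compared between a stage at which the larva was still on the boll (5 dpa, days post anthesis) and a stage after it had been taken off (10 dpa). The comparison is the interaction (infested minus control at 10 dpa) minus (infested minus control at 5 dpa), and it rests on 12 of the 24 arrays of the series. These are 3 arrays each of noninfested control bolls (CN) and bollworm-infested bolls (BS) at both stages. The members of each class below were found among 23977 probe sets, after 103 AFFX and 52 RPTR control probe sets of the 24132 on the Affymetrix Cotton GeneChip had been left out.

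All groups were bolls of field-grown Gossypium hirsutum cv. Bikaneri Narma, and each replicate pooled bolls of 5 plants. Larvae of Helicoverpa armigera had been put on buds or flowers at the day of pollination, and bolls were bagged in both treatments. CN and BS plants stood in different plots, so plot and treatment cannot be told apart. At 5 and 10 dpa only the infested portion of the BS bolls was taken, the part of the CN bolls used being given only as the respective control, whereas the 0 and 2 dpa samples were whole bolls. The larva was removed after 5 days. By the methods the bolls then grew for 10 more days and by the labels for up to 10, so BS bolls of the later stage may be older than 10 days, while the sources give their CN bolls no collection time of their own. Removal of the larva, boll age and the further development of the boll therefore cannot be told apart in this comparison.

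Chewing damage to a plant is followed by jasmonate and ethylene signalling, which switch on wound and defence genes such as protease inhibitors, chitinases and osmotins, usually while growth genes are turned down. A young cotton boll is at the same time a growing organ: ovule epidermal cells elongate into fibres, which needs expansins, tubulins, fatty acid elongation and arabinogalactan proteins, and the fibres later turn to depositing cellulose through cellulose synthases. A response measured against control bolls of the same stage can therefore change because the infested bolls changed or because the control bolls did, and each arm is given separately below.

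The deposited values are log2 expression values centred on the median of each probe set over the 24 arrays, so levels cannot be compared between genes. Probe sets with identifiers that end in s_at or x_at can detect several related transcripts. Within the 4 groups compared, probe sets had a median SD of 0.0951 to 0.111, and the lowest correlation between arrays of such a group was 0.8802. The SD over probe sets of an array was 0.49 to 0.5 in BS at 5 dpa and 1.05 to 1.07 in BS at 10 dpa, against 0.7 to 0.81 in CN at these stages. Control transcripts spiked into the samples also differed between the treatments. The 27 hybridization control probe sets were higher in BS by a median of 0.81 at 5 dpa and 0.80 at 10 dpa, and the 42 probe sets for poly-A controls by 1.89 and 0.99. The poly-A controls thus had an interaction of −0.88, against 0.10 over all tested probe sets, and their part in the results was tested only by centring on them. The difference between the 3′ and the 5′ probe sets of the sucrose synthase control, a measure of RNA quality, was lower in BS than in CN by 1.54 log2 units at 10 dpa and higher by 0.24 at 5 dpa. In the other 3 controls with such probe sets it was higher in BS at both stages, by 0.40 at 5 dpa and 0.06 at 10 dpa for Ghi-actin, by 0.14 and 0.11 for Ghi-ubq11 and by 1.19 and 1.40 for Gra-actin, and the part of RNA quality in the results was not tested.

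Most of the probe sets called with the larva on the boll were called in the same direction after removal with the deposited scaling, and a larger set of falls was called only afterwards. DETs (differentially expressed transcripts) had to pass an adjusted p of 0.01 and a 3-fold difference, that is 1.58 on the log2 scale. At 5 dpa 1533 probe sets (6.39% of all tested) were higher and 589 (2.46%) lower in BS, and at 10 dpa 2150 (8.97%) were higher and 2763 (11.5%) lower. The interaction was called for 1900 probe sets (7.92%), of which 450 (1.88%) had a higher and 1450 (6.05%) a lower response at 10 than at 5 dpa, by limma with Benjamini-Hochberg adjustment. The share of higher calls was thus 23.7%. It was 35.1% after quantile normalization of the deposited values and 85.9% with arrays centred on the poly-A controls, where 3903 were higher and 642 lower, so the balance between directions depends on the scaling. The median interaction of all tested probe sets was 1.02 with that centring. The share of rises among the DETs was 72.2% at 5 dpa and 43.8% at 10 dpa. Centring on the hybridization controls made it 20.4% and 18.8%, centring on the poly-A controls 1.9% and 14.9%, and quantile normalization 53.6% and 50.3%. The balance also depends on the fold threshold. With the deposited scaling the share of higher interactions was 38.0% at a fold of at least 2, and without a fold threshold 11644 probe sets had an interaction with an adjusted p of at most 0.01, of which 5907 were higher and 5737 lower (50.7% higher). The smallest such interaction that was called was 1.5853 and the largest that was not 1.5848.

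**Figure D1:**
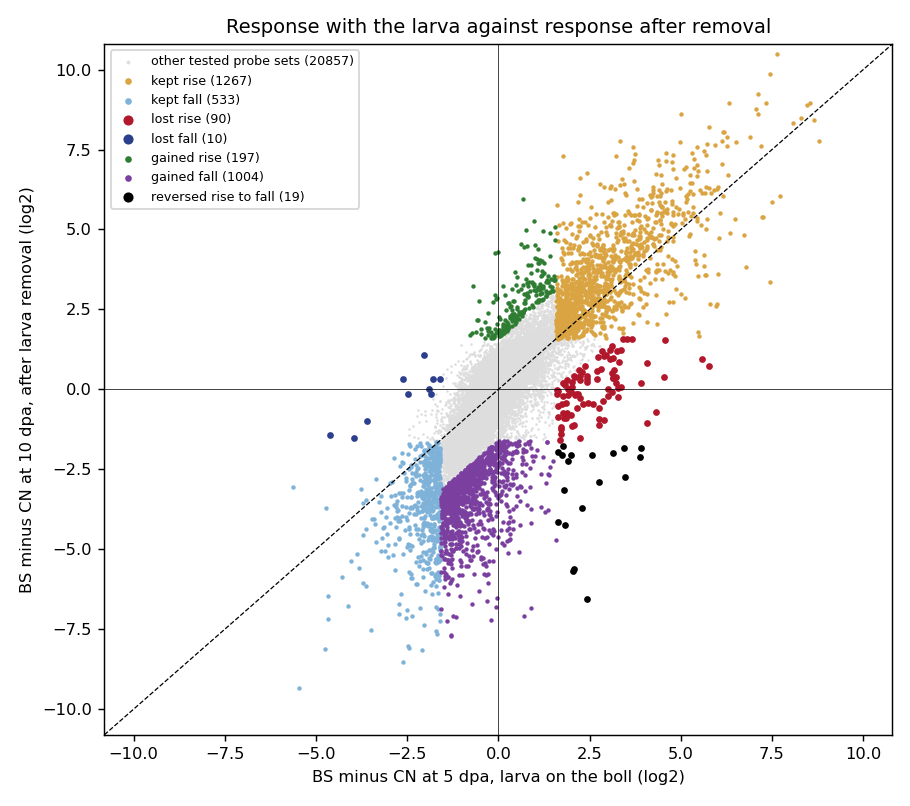
BS minus CN at 5 dpa (x axis, log2) against BS minus CN at 10 dpa (y axis, log2) for the 23977 tested probe sets, 1 point each, coloured by class; the dashed line marks equal responses. The 1267 kept rises lie at upper right and the 533 kept falls at lower left, where 224 of the falls are below the dashed line by a called difference, the 1004 gained falls hang below it near 0 on the x axis, and the 90 lost rises and 19 reversals lie at lower right.

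A response was counted as kept where the probe set was called in the same direction at both stages, as lost or gained where it was called at only 1 stage and the interaction was called too, and as reversed where it was called in opposite directions. Of the 1533 rises at 5 dpa, 1267 were kept (5.28% of all tested), which is 82.6% of the rises at 5 dpa and 58.9% of those at 10 dpa. Of the 589 falls at 5 dpa, 533 were kept (2.22% of all tested), which is 90.5% of the falls at 5 dpa but 19.3% of those at 10 dpa. The lost class held 90 rises (0.375%) and 10 falls (0.0417%), while 197 rises (0.822%) and 1004 falls (4.19%) were gained, and 19 rises (0.0792%) had turned into falls. These shares depend on the scaling. After quantile normalization 1066 of 1496 rises and 599 of 1297 falls at 5 dpa were kept and 169 falls were lost. With arrays centred on the poly-A controls 330 of 350 rises but 5869 of 18077 falls were kept and 2325 falls were lost. No fall had turned into a rise with the deposited scaling, although 12 did with arrays centred on the poly-A controls. A further 157 rises and 46 falls were called at 5 dpa only and 686 rises and 1207 falls at 10 dpa only without a called interaction, and these are not read as lost or gained. The remaining 44 probe sets with a higher and 86 with a lower response at 10 dpa were called at neither stage.

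Among the kept rises, 1042 had no called difference between the stages, 198 had grown and 27 had shrunk. After quantile normalization, which gives all arrays the same spread, 28 rises had grown and 51 falls had deepened, against 198 and 224 here, and the gained rises and gained falls numbered 43 and 266. For 597 kept rises and 133 kept falls the 95% interval of the interaction lay within 1 log2 unit of 0 on either side, and these were counted as held. The held rises had a median response of 2.41 at 5 dpa and 2.58 at 10 dpa, and the held falls of −1.89 and −2.27.

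The described held rise with the largest mean response was ACS1, ACC synthase 1, which makes the precursor of ethylene. Its values were −6.20, −6.57 and −6.56 in CN and 2.08, 2.10 and 2.09 in BS at 5 dpa, and −6.79, −6.91 and −6.62 in CN and 2.18, 2.19 and 2.14 in BS at 10 dpa. All BS arrays were far above all CN arrays at both stages. The response was 8.53 ± 0.15 (SE, n = 3 arrays per group) at 5 dpa and 8.95 ± 0.15 at 10 dpa, with an interval of the interaction from −0.03 to 0.86. ASN1, the dark-inducible asparagine synthetase that packs nitrogen for transport, ran close to it. It stood at −6.14, −6.96 and −6.80 in CN and 1.83, 1.81 and 1.83 in BS at 5 dpa, and at −6.79, −6.70 and −6.87 in CN and 2.12, 2.14 and 2.06 in BS at 10 dpa. Its response was 8.46 ± 0.13 and 8.89 ± 0.13, with an interval of the interaction from 0.05 to 0.82.

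The named held falls were genes of the elongating fibre and of lipid metabolism. Alpha-expansin 1, a wall-loosening protein, had values of 3.20, 3.53 and 3.55 in CN and 0.06, 0.06 and −0.07 in BS at 5 dpa. At 10 dpa they were 4.03, 4.13 and 3.92 in CN and −0.13, 0.07 and −0.06 in BS. BS was lower on every array by 3.41 ± 0.09 at 5 dpa and 4.07 ± 0.09 at 10 dpa in the group means. The response of the high-glycine tyrosine keratin-like protein (xl3 gene) was −3.63 and −3.47, that of FAD3, an omega-3 fatty acid desaturase, −3.27 and −3.51, and that of 3-ketoacyl-CoA synthase 6, which extends fatty acids for wax and cutin, −3.04 and −3.69.

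The 198 rises that grew after removal had a median response of 2.89 at 5 dpa and 5.23 at 10 dpa, and the leading named members were defence proteins and stress enzymes. Osmotin 34 (ATOSM34), an antifungal PR5 protein, stood at −0.84, −0.91 and −1.06 in CN and 2.37, 2.37 and 2.44 in BS at 5 dpa. At 10 dpa it was −4.37, −4.48 and −4.48 in CN and 3.30, 3.38 and 3.31 in BS. The BS arrays were higher at both stages, and the CN arrays of 10 dpa lay below all others. The response went from 3.33 ± 0.06 to 7.77 ± 0.06, an interaction of 4.44 ± 0.08 (adjusted p = 1.7e-19), of which CN fell by 3.51 while BS rose by 0.93. Class I endochitinase, which cleaves chitin, went from 2.41 to 6.77, with a CN change of −3.32 and BS rising by 1.04.

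Alternative oxidase (AOX1), the cyanide-resistant terminal oxidase of plant mitochondria, grew through the infested arm instead. It stood at −0.57, −0.84 and −0.87 in CN and 0.61, 0.86 and 1.08 in BS at 5 dpa, and at −1.0, −1.05 and −0.80 in CN and 4.93, 4.64 and 4.87 in BS at 10 dpa. The BS arrays of 10 dpa were above all others. The response went from 1.61 ± 0.15 to 5.76 ± 0.15 (interaction 4.15 ± 0.22, adjusted p = 1.3e-12), with a change of 3.96 in BS and −0.19 in CN. With poly-A centring its response at 5 dpa was −0.28. The blue-copper-binding protein ATBCB went from 3.24 to 7.29, with a CN change of −2.14 and BS rising by 1.91. Over the 198 grown rises, BS was called higher at 10 than at 5 dpa for 96 and CN lower for 28.

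The 27 rises that shrank had a median response of 5.64 at 5 dpa and 2.97 at 10 dpa. Polygalacturonase, which cuts pectin, stood at −3.75, −3.73 and −3.48 in CN and 3.77, 3.77 and 3.81 in BS at 5 dpa. At 10 dpa it was −3.89, −3.43 and −3.87 in CN and −0.28, −0.39 and −0.47 in BS. CN changed by −0.07 ± 0.10, and BS fell by 4.16 ± 0.10 but stayed above CN on all arrays. The response went from 7.44 ± 0.10 to 3.35 ± 0.10 (interaction −4.09 ± 0.14, adjusted p = 1.2e-15).

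A probe set described as most similar to ribosomal protein S23 of Drosophila had the same course. It stood at −0.04, −0.09 and −0.16 in CN and 5.28, 5.36 and 5.46 in BS at 5 dpa, and at −0.13, −0.40 and −0.26 in CN and 0.72, 1.87 and 1.96 in BS at 10 dpa. It was high in all BS arrays of 5 dpa, and of those of 10 dpa replicate 1 lay below the others. The response was −0.44 at 0 dpa, 1.86 at 2 dpa, 5.46 ± 0.21 at 5 dpa and 1.78 ± 0.21 at 10 dpa (interaction −3.69 ± 0.29, adjusted p = 9.3e-10). Of the 58 probe sets of the ribosomal protein list, it was the only 1 called higher in BS at 5 dpa. The tissue taken at 5 dpa was in contact with the larva, and whether this probe set detects a cotton transcript was not tested.

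Shrinkage was more often a rise of the control than a fall of the infested bolls: CN was called higher at 10 dpa for 19 of the 27 and BS lower for 5. A putative acid phosphatase, which frees phosphate, went from 5.97 to 2.61 as CN rose by 3.25 and BS changed by −0.11. BLH1, a BEL1-like homeodomain factor, went from 6.0 to 2.68 as CN rose by 3.94 and BS by 0.62. A Kunitz-type inhibitor of the trypsin and protease inhibitor family, a class that blocks gut proteases of feeding insects, went from 7.27 to 5.38 as CN rose by 2.50, an interaction of −1.88 that was −0.96 and not called with arrays centred on the poly-A controls.

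**Figure D2:**
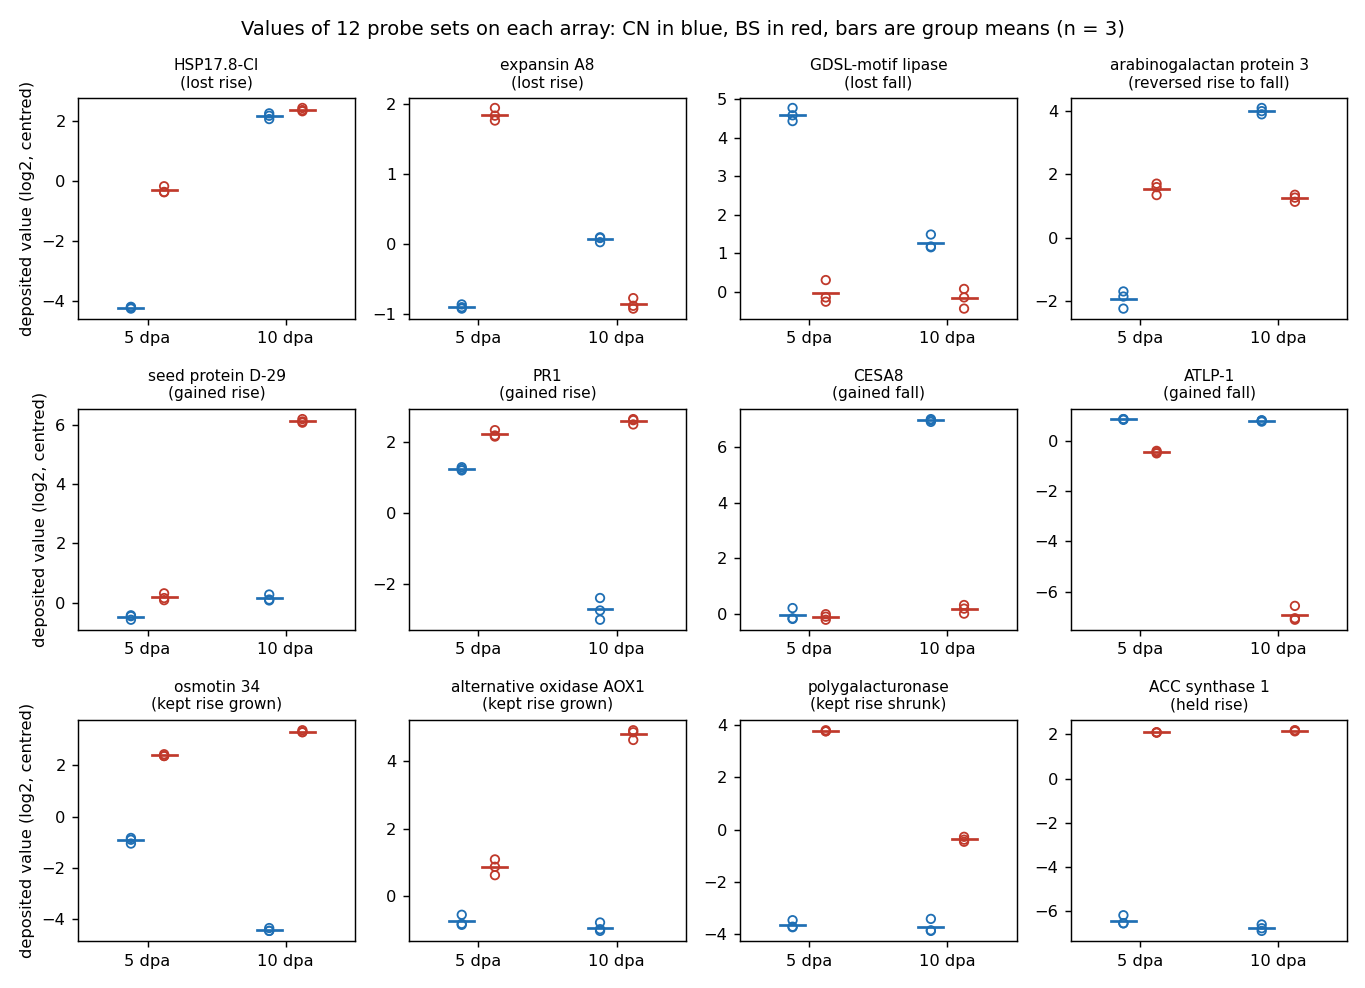
Deposited log2 values of 12 probe sets in each of the 12 arrays (open circles; CN blue, BS red; bars are means of 3 arrays), at 5 and 10 dpa, with the class of each probe set. For HSP17.8-CI the CN arrays climb to the BS level, for seed protein D-29 only the BS arrays of 10 dpa are high, and for CESA8 only the CN arrays of 10 dpa are.

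The 90 lost rises had a median response of 2.43 at 5 dpa and 0.06 at 10 dpa, and small heat shock proteins and wall-loosening enzymes were among them. With arrays centred on the hybridization controls the class held 50 probe sets, 44 of them shared with the 90, and with poly-A centring 8, of which 6 were shared. HSP17.8-CI, a cytosolic small heat shock protein that keeps damaged proteins from clumping, stood at −4.24, −4.20 and −4.18 in CN and −0.35, −0.36 and −0.16 in BS at 5 dpa. At 10 dpa it was 2.19, 2.08 and 2.27 in CN and 2.34, 2.45 and 2.38 in BS. Both arms were higher at 10 dpa than on any array of 5 dpa, and BS stayed above CN by a small margin. The response fell from 3.92 ± 0.09 to 0.21 ± 0.09 (interaction −3.71 ± 0.13, adjusted p = 1.3e-15), because CN rose by 6.39 and BS by 2.68. HSP21, a chloroplast small heat shock protein, behaved alike, with a response of 3.28 ± 0.19 and 0.05 ± 0.19, a CN rise of 6.59 and a BS rise of 3.35.

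The small heat shock proteins were measured by 8 probe sets, a grouping chosen after their values had been seen. Their interactions ran from −3.71 to −1.41, with 7 of 8 called lower (5 with poly-A centring, and all below 0 under every scaling tried), and CN was called higher at 10 than at 5 dpa for 7 and BS for 5. ATHSP22.0 belongs to them but had no response to lose. Its response was 0.22 at 5 dpa and −3.29 at 10 dpa, since CN rose by 6.94 and BS by 3.42. The 8 heat shock factor probe sets, for the regulators of these genes, included 5 kept rises, with a median response of 2.18 at 5 dpa and 3.05 at 10 dpa, and 1 had a called higher interaction.

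Expansin A8 (ATEXPA8) lost its rise through the infested arm. It stood at −0.87, −0.93 and −0.91 in CN and 1.76, 1.83 and 1.94 in BS at 5 dpa, and at 0.02, 0.09 and 0.08 in CN and −0.93, −0.78 and −0.89 in BS at 10 dpa. BS was above CN at 5 dpa and below it at 10 dpa without overlap. The response was 2.75 ± 0.06 and −0.93 ± 0.06 (interaction −3.68 ± 0.08, adjusted p = 1.3e-18), with a BS change of −2.71 and a CN change of 0.97. A xyloglucan:xyloglucosyl transferase, which cuts and rejoins xyloglucan in the wall, went from 2.24 to −1.53, mainly as CN rose by 3.28.

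Other lost rises concerned energy metabolism, signalling and water transport. The largest interaction among the described members was that of a probe set named ATP synthase CF1 beta subunit, which another table lists as unknown. It stood at −0.50, −0.77 and −0.97 in CN and 2.43, 1.99 and 2.02 in BS at 5 dpa, and at 0.83, 0.70 and 1.03 in CN and −0.14, −0.09 and −0.12 in BS at 10 dpa. The order of the arms had turned around, and the response went from 2.89 ± 0.13 to −0.97 ± 0.13. A probe set of ADH1, the fermentative alcohol dehydrogenase, went from 1.68 to −1.57 as BS fell by 1.63 and CN rose by 1.62. Its fall at 10 dpa was just under the fold threshold, and its response at 5 dpa was −0.21 with poly-A centring. Another probe set named alcohol dehydrogenase 1 had no rise to lose and went from −1.42 to −2.85. A probe set named MAP kinase-like protein, which is also counted in the list of WRKY factors below, went from 4.07 to 0.81. The aquaporin PIP2B went from 2.32 to −0.47, and RuBisCO activase 1, which keeps the carbon-fixing enzyme active, from 2.08 to −1.11. ACC oxidase ACO4, of the last step of ethylene synthesis, went from 1.84 to −0.79, with −0.05 at 5 dpa under poly-A centring. Over the 90 lost rises, CN was called higher at 10 dpa for 42 and BS lower for 27, with 4 in both counts. In 27 of the 90 all BS arrays of 5 dpa were above the other 21 arrays of the series, which held for 248 of all tested probe sets. The class was chosen for a high BS on these arrays at 5 dpa, so this count describes it and is no separate test.

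Only 4 of the 10 lost falls carried a description, and in each of them the CN level fell from 5 to 10 dpa. A GDSL-motif lipase/hydrolase, of a family of esterases that includes cutin enzymes, stood at 4.77, 4.58 and 4.43 in CN and 0.31, −0.25 and −0.14 in BS at 5 dpa. At 10 dpa it was 1.18, 1.16 and 1.49 in CN and 0.08, −0.43 and −0.14 in BS. BS was low on all 6 arrays and CN was high at 5 dpa. The response was −4.62 ± 0.20 and −1.44 ± 0.20 (interaction 3.18 ± 0.29, adjusted p = 7.7e-09). MEE3, a small MYB-like factor, went from −2.61 to 0.32 with a CN change of −3.19, a 1,3-beta-glucanase, which cleaves callose, from −1.90 to 0.01 with a CN change of −4.76, and growth-regulating factor 1 from −1.84 to −0.13 with a CN change of −2.26. The interaction of the last was 1.71 and fell under the fold threshold, at 1.57, without replicate 1 of CN at 5 dpa. Another GDSL-motif lipase was the only kept fall that shrank, from −5.64 to −3.05, as CN fell by 3.44 and BS by 0.85.

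The 197 gained rises had a median response of 0.60 at 5 dpa and 2.76 at 10 dpa. They were led by proteins of seed maturation and of defence, and these came about in different ways. Seed protein D-29, a late embryogenesis abundant (LEA) protein that protects drying cells, stood at −0.45, −0.42 and −0.57 in CN and 0.16, 0.32 and 0.09 in BS at 5 dpa. At 10 dpa it was 0.08, 0.11 and 0.28 in CN and 6.19, 6.11 and 6.07 in BS. The BS arrays of 10 dpa were far above all others. The response went from 0.67 ± 0.15 to 5.97 ± 0.15 (interaction 5.30 ± 0.21, adjusted p = 1.2e-14), of which BS rose by 5.93. A LEA storage protein went from −0.02 to 4.30 with a BS rise of 4.01. Another cotton LEA storage protein had already risen at 5 dpa and went from 6.32 to 8.95, an interaction of 2.62 that was 0.68 and not called after quantile normalization. The list of late embryogenesis, dehydrin and seed storage probe sets was mixed. Of its 9 members, 3 had a called higher and 2 a called lower interaction, with 2 gained rises and 1 gained fall.

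For the defence proteins of this class the infested bolls hardly moved while the controls fell. PR1, the marker protein of salicylate-linked defence, stood at 1.28, 1.23 and 1.19 in CN and 2.14, 2.17 and 2.32 in BS at 5 dpa, and at −3.0, −2.39 and −2.74 in CN and 2.48, 2.60 and 2.63 in BS at 10 dpa. The CN arrays of 10 dpa lay far below the rest. The response went from 0.98 ± 0.11 to 5.28 ± 0.11 (interaction 4.30 ± 0.15, adjusted p = 2.5e-15), with a CN change of −3.94 and a BS change of 0.36. An acidic chitinase stood at 1.34, 1.46 and 1.32 in CN and 0.59, 0.66 and 0.78 in BS at 5 dpa, and at −2.61, −2.66 and −2.63 in CN and 0.51, 0.64 and 0.62 in BS at 10 dpa. BS was below CN at 5 dpa and above it at 10 dpa, with a response of −0.70 ± 0.06 and 3.23 ± 0.06, although BS itself changed by only −0.09 ± 0.06. PR protein class 10 went from 0.77 to 4.97 with a CN change of −3.68. An AP2 domain factor went from 0.12 to 3.24 with a BS change of 2.54. Over all 197, BS was called higher at 10 dpa for 102 and CN lower for 16, so the named examples with falling controls are the less common kind.

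The 1004 gained falls were the largest of the lost and gained classes, with a median response of −0.81 at 5 dpa and −3.20 at 10 dpa. BS was called lower at 10 than at 5 dpa for 668 of them and CN higher for 164, with 25 in both counts. The arrays of BS and CN did not overlap at 10 dpa for all 1004 of them, which held for 75.6% of all tested probe sets. At 5 dpa they did not overlap for 870, against 67.3% of all tested. The BS arrays of 10 dpa lay below the other 21 arrays of the series for 703 of the 1004, against 3667 of all tested probe sets. The class was chosen for a called fall of BS below CN on these arrays at 10 dpa. The counts for 10 dpa follow largely from that choice and are no separate test.

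The largest interaction among the described gained falls belonged to CESA8, a catalytic subunit of the cellulose synthase of secondary walls. It stood at −0.18, −0.16 and 0.21 in CN and −0.01, −0.21 and −0.10 in BS at 5 dpa, and at 6.91, 7.01 and 6.97 in CN and 0.19, 0.01 and 0.32 in BS at 10 dpa. Only the CN arrays of 10 dpa were high. The response was −0.06 ± 0.13 at 5 dpa and −6.79 ± 0.13 at 10 dpa (interaction −6.73 ± 0.19, adjusted p = 4.8e-17), and it came from a CN rise of 7.01 beside a BS change of 0.28. Alpha tubulin 1, of the microtubules that guide cellulose deposition, was alike with a CN rise of 6.88 and a BS change of 0.40, and so were profilin, an actin-binding protein (5.60 and 0.11), and IRX3, another secondary wall cellulose synthase (3.94 and −0.83). A probe set of fasciclin-like arabinogalactan protein 6, of a cell surface family, went from 1.58 to −4.70 with CN rising by 4.47, and CKX5, which breaks down cytokinin, from −0.30 to −6.62 with CN rising by 3.62 and a BS change of −2.70.

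A probe set of thaumatin-like protein 1 (ATLP-1), of the PR5 family, stood for the other kind. Its values were 0.82, 0.85 and 0.85 in CN and −0.46, −0.41 and −0.51 in BS at 5 dpa, and 0.75, 0.80 and 0.80 in CN and −6.56, −7.11 and −7.05 in BS at 10 dpa. CN was level, and the BS arrays of 10 dpa lay far below all others. The response was −1.30 ± 0.09, under the fold threshold, at 5 dpa and −7.69 ± 0.09 at 10 dpa (interaction −6.39 ± 0.13, adjusted p = 8.6e-19). Expansin A10 went from −1.25 to −7.08 with a BS change of −4.77, auxin response factor ARF16 from −1.23 to −5.04 with a BS change of −3.29, and chalcone synthase (CHS), which opens the flavonoid pathway, from −0.88 to −4.11 with a BS change of −3.15.

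The 224 kept falls that deepened went from a median of −1.86 to −4.66, and BS was called lower at 10 than at 5 dpa for 176 and CN higher for 19. The xl1 long chain fatty acid elongation enzyme, a cotton fibre gene, stood at 2.49, 2.35 and 2.51 in CN and −0.33, −0.03 and −0.13 in BS at 5 dpa, and at 8.32, 8.24 and 8.55 in CN and −0.17, −0.13 and −0.13 in BS at 10 dpa. BS changed by 0.02 ± 0.11 between the stages, and CN rose by 5.93. Its response went from −2.61 ± 0.11 to −8.52 ± 0.11 (interaction −5.91 ± 0.15, adjusted p = 1.6e-17). Beta-tubulin 1 went from −1.72 to −7.56 with CN rising by 5.14.

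XYL4, a beta-xylosidase of wall polysaccharides, deepened through the infested arm. It stood at 1.06, 1.13 and 1.23 in CN and −0.50, −0.49 and −0.61 in BS at 5 dpa, and at 1.59, 1.64 and 1.70 in CN and −6.06, −6.21 and −5.77 in BS at 10 dpa. BS was below CN at both stages and lowest at 10 dpa, with a response of −1.67 ± 0.08 and −7.66 ± 0.08. Another ATLP-1 probe set went from −2.09 to −8.14 with a BS change of −6.28.

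Reversals were found in 19 probe sets, 6 of them described, with a median response of 2.07 at 5 dpa and −2.23 at 10 dpa. BS was called lower at 10 dpa for 14 and CN higher for 11. Arabinogalactan protein 3, a cell surface proteoglycan, stood at −1.69, −2.23 and −1.85 in CN and 1.34, 1.59 and 1.70 in BS at 5 dpa, and at 3.98, 4.08 and 3.88 in CN and 1.13, 1.26 and 1.35 in BS at 10 dpa. BS was nearly level while CN passed it from below. The response was 3.46 ± 0.14 and −2.73 ± 0.14 (interaction −6.20 ± 0.20, adjusted p = 6.3e-16). Alpha-expansin 2, another wall-loosening protein, stood at −0.78, −0.85 and −0.88 in CN and 1.45, 1.47 and 1.42 in BS at 5 dpa, and at 0.99, 0.94 and 0.98 in CN and −3.12, −2.62 and −2.47 in BS at 10 dpa. Here BS fell by 4.19, and the response went from 2.28 ± 0.10 to −3.71 ± 0.10. Another probe set of fasciclin-like arabinogalactan protein 6 went from 1.62 to −4.13, although its rise at 5 dpa was −0.27 with arrays centred on the poly-A controls. The tonoplast aquaporin GAMMA-TIP went from 1.91 to −2.23. Of the 11 aquaporins, which carry water across membranes, 5 were called higher at 5 dpa, 7 were called lower at 10 dpa and 6 had a lower interaction, with a median interaction of −2.24.

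**Figure D3:**
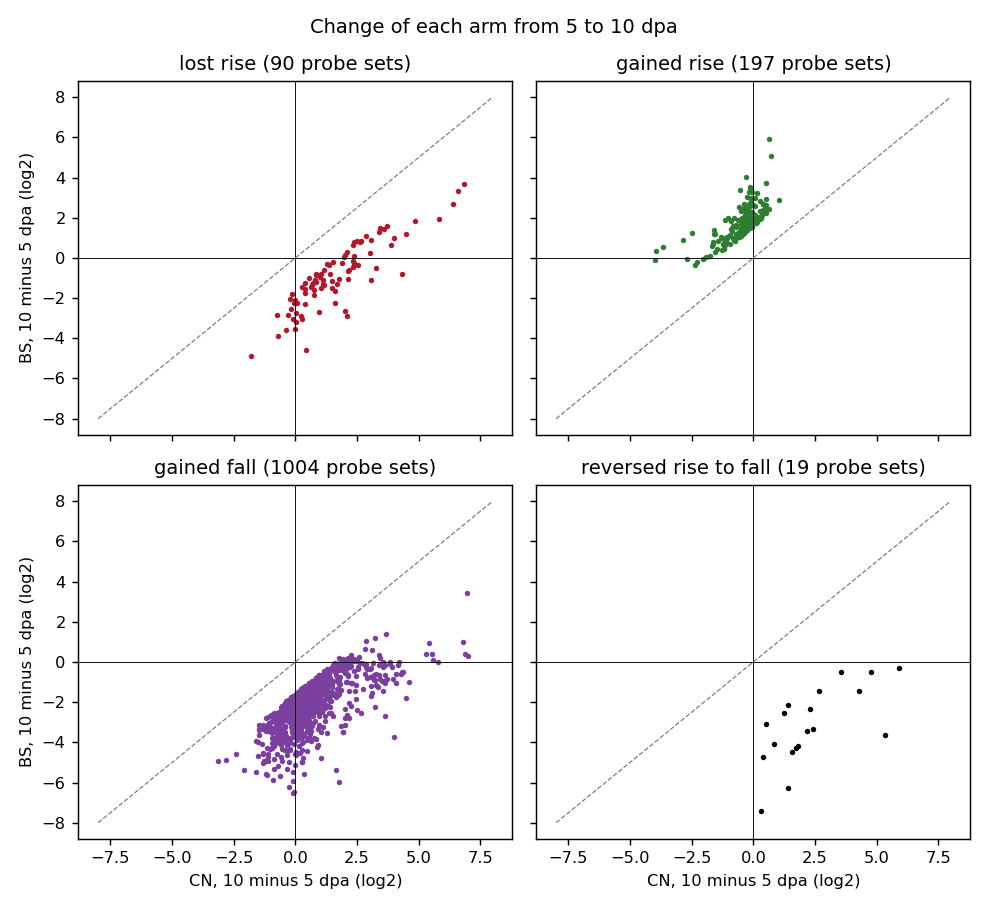
Change of CN (x axis) and of BS (y axis) from 5 to 10 dpa, both log2, for the probe sets of 4 classes, 1 point each; the dashed line marks an equal change in both arms. In the lost rises many points lie to the right, where CN rose by up to 6.85, in the gained rises most points lie straight above 0, and in the gained falls most lie below 0 with an arm reaching right to a CN change of 7.01.

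Across the whole comparison, with the deposited scaling, the infested arm moved more often than the control arm. From 5 to 10 dpa, BS was called higher for 283 probe sets (1.18%) and lower for 1187 (4.95%), and CN higher for 337 (1.41%) and lower for 130 (0.542%). Of the 1450 probe sets with a lower response at 10 dpa, BS was called lower for 909, CN higher for 264, and both for 40. Of the 450 with a higher response, BS was called higher for 204 and CN lower for 58, and in 189 neither arm was called by itself. The interaction is the difference of these arms, so the counts describe it and are no separate test. Changes of the arms, here and in the classes above, were fitted with the deposited scaling only. How far their counts depend on the scaling was not tested.

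Gene groups were taken from word patterns applied to 3954 probe sets described in tables of the study, and counts refer to probe sets. Those tables mostly hold transcripts that had passed thresholds on these arrays, so a list's count is no independent evidence of its direction. Of the 2326 probe sets with a usable name, 733 were called higher and 1251 lower at 10 dpa, 547 were kept rises and 327 kept falls, and 154 had a called higher and 659 a called lower interaction, so that 28.3% had a lower interaction, and the median interactions below should be read beside −0.84 for these and 0.10 for all tested probe sets.

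Lists of wall building and fibre growth had median interactions of −3.46 to −2.10. All 18 arabinogalactan and fasciclin-like probe sets were lower in BS at 10 dpa and 17 had a called lower interaction, with a median response of −1.56 at 5 dpa and −4.42 at 10 dpa. FLA19 went from −1.72 to −5.76. Of the 18 probe sets for cellulose synthases and wall glucan enzymes, 14 had a called lower interaction and 2 a higher one, and the median went from −0.12 to −3.85. The 25 pectin enzymes (17 called lower, 0 higher) went from −0.71 to −3.04, with pectate lyase from −1.81 to −6.39. The 39 expansins and xyloglucan enzymes (24 lower, 1 higher) went from −0.34 to −2.81, and 12 of them had been called higher with the larva on the boll. The 24 fibre and ovule epidermis genes (18 lower, 0 higher) went from −1.65 to −4.01, and SUS1, the sucrose synthase that feeds cellulose synthesis, from −1.65 to −5.40. The median interaction of each of these lists stayed below 0 under all scalings tried, although the interactions of FLA19 (−1.12) and SUS1 (−0.79) were not called after quantile normalization.

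Growth and division followed the same direction with smaller medians. The counts should be read beside the 2326 described probe sets, of which 1251 were called lower at 10 dpa and 659 had a called lower interaction. Of the 39 tubulins and actins, 37 were called lower at 10 dpa and 18 had a called lower interaction. Of the 58 probe sets in the histone, cyclin and DNA replication list, 47 were called lower at 10 dpa, 28 had a called lower interaction and BS was called lower at 10 than at 5 dpa for 35. The list also took in a kinesin light chain-related probe set, a gained fall. Histone H2A went from −1.72 to −5.94 and histone H2B from −1.61 to −5.75. Of the 29 receptor-like kinases and LRR proteins, 24 were called lower at 10 dpa and 14 had a lower interaction, as did 14 of 27 auxin response genes. Photosynthesis genes, which mark the green boll wall, were called lower at 10 dpa in 32 of 40, with 14 lower interactions (35%, against 28.3% of all described probe sets), and the antenna protein LHCB4.3 went from −1.10 to −4.19, an interaction of −3.09 that was −1.53 and not called after quantile normalization. The median interaction of these lists was below 0 under all scalings tried. Ribosomal proteins were called lower at 10 dpa in 49 of 58, but only 3 had a lower and 1 a higher interaction, and their median interaction of −0.71 turned positive after quantile normalization (0.60) and with poly-A centring (0.21).

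Phenylpropanoid and flavonoid enzymes, which make lignin precursors, pigments and tannins, were seldom called at 5 dpa. Of 18, 2 were called higher and 1 lower at 5 dpa, whereas 14 were called lower at 10 dpa and 15 had a lower interaction, with a median of −0.09 and −2.51. Besides chalcone synthase, chalcone isomerase (TT5) went from 0.09 to −2.89 and a dihydroflavonol 4-reductase family member from −1.65 to −5.18. The interactions of chalcone synthase and the dihydroflavonol reductase were −1.40 and −1.37 and not called after quantile normalization. The low-oxygen list had 13 members, 3 of them called higher at 5 dpa. At 10 dpa 1 was called higher and 9 lower, with 1 higher and 6 lower interactions. Its 10 alcohol dehydrogenases held 2 of the rises at 5 dpa, 7 of the falls at 10 dpa and all 6 lower interactions. After quantile normalization 3 of the alcohol dehydrogenases had a lower interaction. The higher interaction belonged to a grown rise outside them. Alcohol dehydrogenase 2c went from 0.66 to −2.59.

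Defence proteins were split. In the list of pathogenesis-related proteins and chitinases, 10 of 22 had a called higher and 10 a called lower interaction. The word patterns missed PR protein class 10, a gained rise with an interaction of 4.20, so it is not in these counts. Of the 12 chitinases, osmotins, PR1 and PR4 probe sets, 10 had a higher and 1 a lower interaction, with a median response of 2.22 at 5 dpa and 4.45 at 10 dpa, and CN was called lower at 10 than at 5 dpa for 7. All 7 probe sets described as thaumatin or thaumatin-like had a lower interaction, with responses of −8.14 to −2.21 at 10 dpa. BS was called lower at 10 than at 5 dpa for 6 of them. Osmotin 34 is a PR5 protein too but was counted with the chitinases, as was an osmotin-like protein. Their interactions were 4.44 and 3.61, so the PR5 family itself went both ways. After quantile normalization 6 of the 12 chitinases and related proteins had a higher and 5 of the 7 thaumatin-like probe sets a lower interaction. A putative thaumatin went from −1.65 to −6.86. These groupings, and those of the alcohol dehydrogenases and of the ACC enzymes, were formed after their values had been seen. Of the protease inhibitors, 5 of 6 were called higher at 5 dpa and 6 of 6 at 10 dpa, and 1 had a higher and 1 a lower interaction.

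Most rises of NAC, AP2/ERF and WRKY factors at 5 dpa were kept, and a minority of each list had a higher interaction. Of 23 NAC factors, 17 were called higher at 5 dpa and 22 at 10 dpa, all 17 were kept, 4 of them grown, and 5 had a higher interaction, with a median response of 2.83 and 3.82. RD26, a dehydration-responsive NAC factor, went from 5.71 to 7.68. Of 44 AP2/ERF factors, 17 were called higher at 5 dpa and 34 at 10 dpa, 16 were kept rises, 2 of them grown, and 13 had a higher and 4 a lower interaction, with 11 gained rises. ERF110, an ethylene response factor, went from 3.68 to 7.58 with a BS change of 3.95. Of 72 WRKY factors, 40 and 52 were called higher, 37 were kept rises, 9 of them grown, with 12 higher and 6 lower interactions. The lower ones include the lost rise of the probe set named MAP kinase-like protein. WRKY51 went from 3.07 to 5.92 as CN fell by 2.05. MYB factors had 6 higher and 12 lower interactions among 43. The median interaction was above 0 for NAC, AP2/ERF and WRKY factors under all scalings tried, although the median response of the AP2/ERF and WRKY lists at 5 dpa turned negative with poly-A centring. After quantile normalization the interactions of WRKY51 (1.26) and RD26 (0.62) were not called.

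Hormone genes differed between lists. Of the 20 probe sets in the list of sterol and brassinosteroid synthesis, 7 were kept falls, 16 were called lower at 10 dpa and 8 had a lower and 0 a higher interaction, with a median response of −1.48 at 5 dpa and −2.77 at 10 dpa. The word patterns also took in DFL2 (dwarf in light 2), a gained fall whose name does not give it as a synthesis gene. Of 19 jasmonate genes, 9 were called higher at 5 dpa and 12 at 10 dpa, 8 of them at both, and 3 had a higher interaction. Allene oxide synthase (AOS), of jasmonate synthesis, went from 1.89 to 4.27, and the repressor TIFY10A from 3.86 to 5.95, with interactions of 0.98 and 0.80 that were not called after quantile normalization. Of the 6 ACC synthase probe sets, 5 were kept rises and 0 had a called interaction. The ACC oxidase ACO4 lost its rise, and ACO1 went from 0.67 to −1.86. Of 13 trehalose and galactinol enzymes, which make protective sugars, 10 were kept rises, and galactinol synthase 2 (ATGOLS2) went from 3.20 to 6.28. Glutathione S-transferases had 2 higher and 0 lower interactions among 7, and ATGSTU23 went from 3.34 to 6.39. Of the 14 glyoxylate cycle and beta-oxidation probe sets 10 were kept rises, but the cottonseed isocitrate lyase went from −0.82 to −5.53 as CN rose by 3.63. The cationic amino acid transporter AAT1 went from 3.07 to 6.31. Of 13 senescence and cell death probe sets, 5 were called higher and 1 lower at 5 dpa and 6 higher and 5 lower at 10 dpa, and YLS9, a gene of yellowing leaves, went from 5.08 to 6.89. The interactions of ATGSTU23, AAT1 and YLS9 were not called after quantile normalization.

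**Figure D4:**
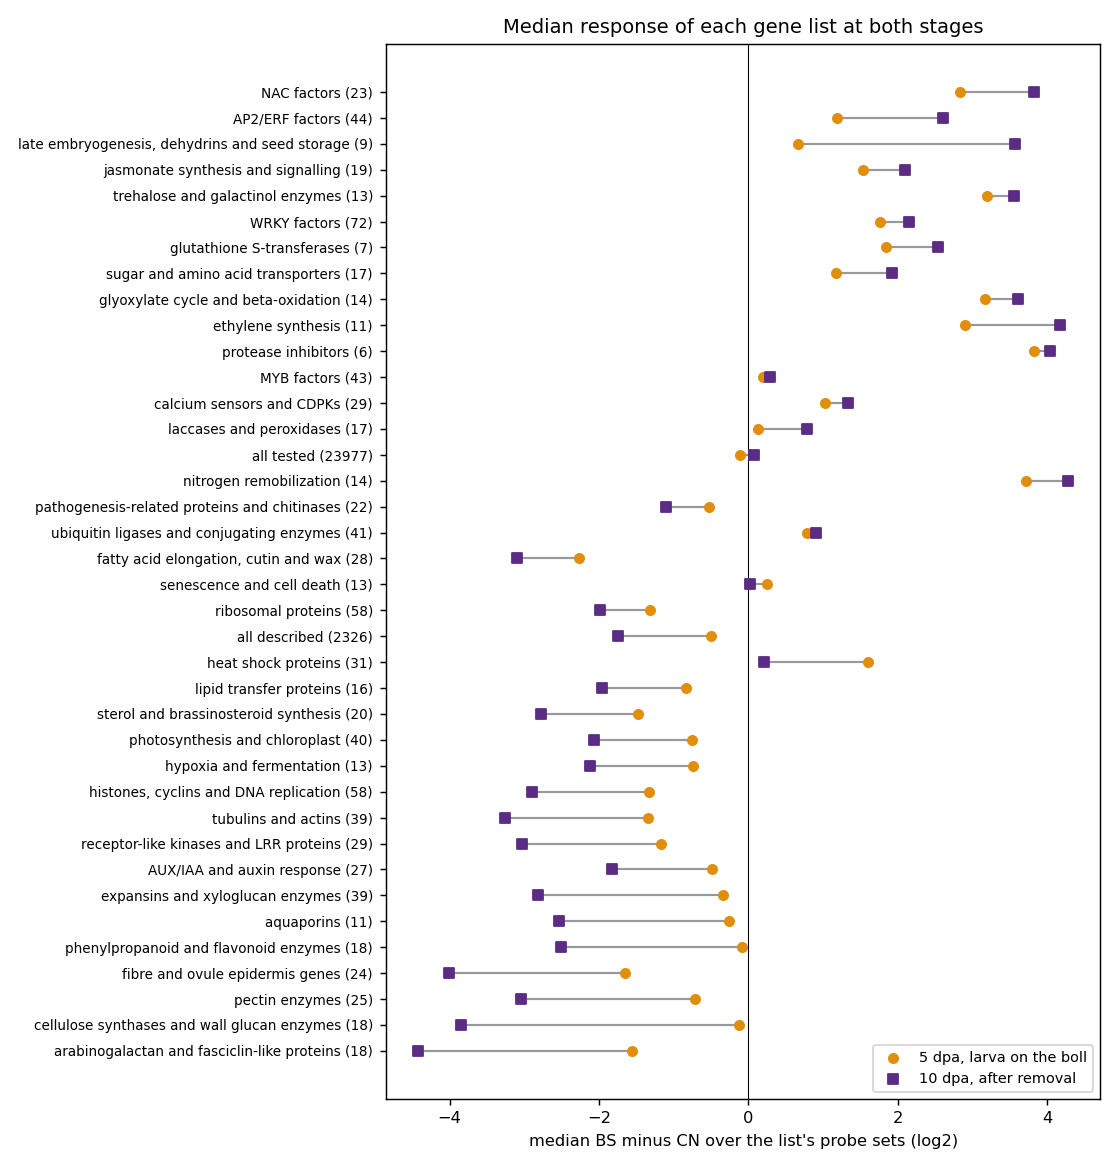
Median BS minus CN (log2) over the probe sets of each gene list at 5 dpa (orange circles) and 10 dpa (purple squares), with the number of probe sets, ordered by the median interaction. Wall, fibre and phenylpropanoid lists lie between −1.65 and −0.09 at 5 dpa and between −4.42 and −2.51 at 10 dpa, heat shock proteins at 1.60 and 0.21 (−0.28 and −0.76 with poly-A centring), and NAC factors at 2.83 and 3.82.

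The responses at 0 and 2 dpa were not used to form the classes and show how the same probe sets stood earlier, in whole bolls. Arrays of these stages did enter the estimate of spread. With the 12 arrays of 5 and 10 dpa alone, held rises numbered 579 and held falls 130. Over all tested probe sets, BS was called higher for 4.19% and lower for 1.28% at 0 dpa, and higher for 3.34% and lower for 4.46% at 2 dpa. Of the 27 rises that later shrank, 21 were called higher at 0 dpa and 14 at 2 dpa. Of the 198 grown rises these were 144 and 135, of the 597 held rises 230 and 154, and of the 90 lost rises 32 and 28. The gained rises were called higher in 29 of 197 at 0 dpa and 38 at 2 dpa. Some of the named ones were among these. Seed protein D-29 had responses of 0.71, 4.26, 0.67 and 5.97 at 0, 2, 5 and 10 dpa. PR1 had 2.51, 1.93, 0.98 and 5.28, whereas the LEA storage protein among the gained rises had 0.24, 1.39, −0.02 and 4.30. On the falling side, 57 of the 224 deepened falls were called lower at 0 dpa and 164 at 2 dpa, while the gained falls were called lower in 88 of 1004 at 0 dpa and 368 at 2 dpa. A gained fall was thus not always new at 10 dpa: the median response of the class was −0.60 at 0 dpa, −1.16 at 2 dpa, −0.81 at 5 dpa and −3.20 at 10 dpa. The ATLP-1 probe set among the gained falls had responses of −0.72, −4.75, −1.30 and −7.69 at the 4 stages and expansin A10 of −1.83, −5.86, −1.25 and −7.08, whereas CESA8 had −0.28, 0.29, −0.06 and −6.79. Tissue differed between the stages, and its part in these counts was not tested.

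**Figure D5:**
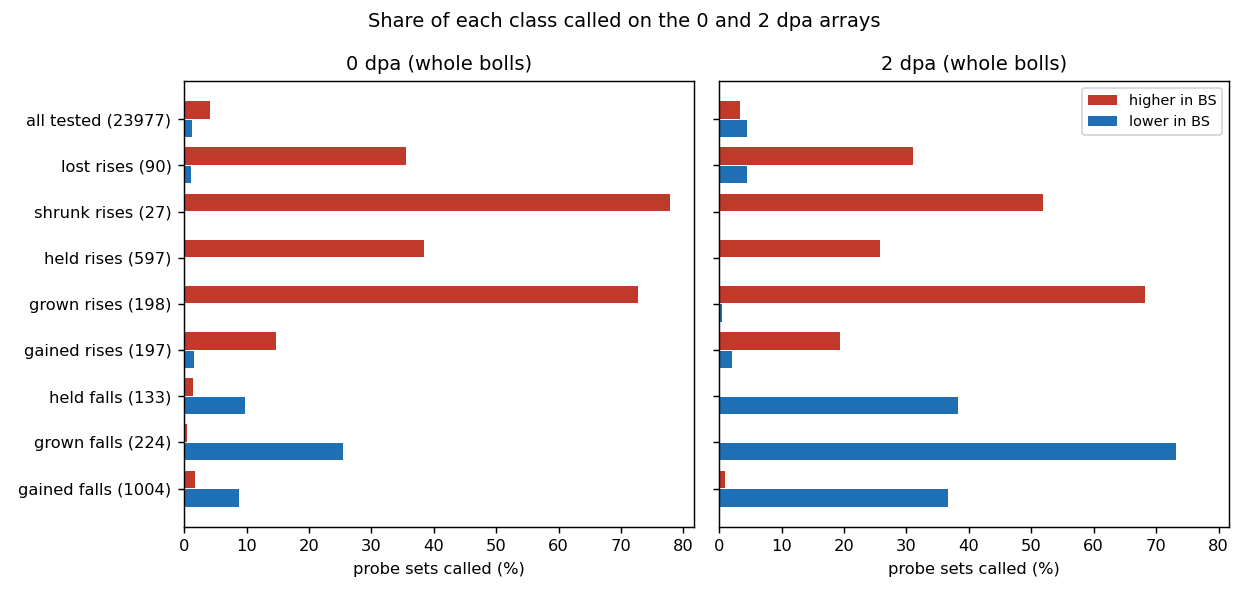
Percent of the probe sets of each class that were called higher (red) or lower (blue) in BS than in CN at 0 dpa (left) and 2 dpa (right), with the number of probe sets, beside all tested. Of the shrunk rises 77.8% were called higher at 0 dpa, against 38.5% of the held, 35.6% of the lost and 14.7% of the gained rises, and of the deepened falls 73.2% were called lower at 2 dpa.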

How the data were processed

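Bolls of 8 groups (CN and BS at 0, 2, 5 and 10 dpa, 3 arrays each) were hybridised to the Affymetrix Cotton GeneChip. The authors deposited log2 values made by RMA (no version stated in the sources read), and centred them per probe set on the median over all arrays, so no filter on dim probe sets could be set and levels between genes were not compared. GeneSpring GX is named with different versions in the methods and the series text.

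Groups were taken from the sample labels. All 24 arrays were fitted with 8 group means in limma 3.58.1 (R 4.3.3), which left 16 residual and 3.53 prior degrees of freedom, and p-values were adjusted over 23977 probe sets. Calls had to pass an adjusted p of 0.01 and a 3-fold difference, as in the study's methods. The fitting script was tested on simulated data. Each array is a pool of bolls of 5 plants, p-values measure the spread between such pools, and precision is limited by having 3 arrays per group. No column of another sample was present (0).

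Names came from the tables of the study, which describe 2326 of the tested probe sets in usable words, 2099 of the 5346 called at 5 dpa, 10 dpa or in the interaction. Array annotation gave locus numbers only and was not used for names. Named genes were, among described probe sets whose groups did not overlap where called, those with the largest interaction in each class, the held ones with the largest mean response, and up to 3 with the largest called interaction in each list. A gene name stands for the probe set so chosen, and other probe sets of that gene can differ. An item that the rule chose is not reported here. The members and lists were chosen with earlier results of these data known. Alternatives were other scalings (quantile, hybridization controls, poly-A controls, array median), the 12 arrays alone, a replicate block, the methods' t-test, other thresholds, classes from the calls alone and leaving out each array.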

Additional observations from a re-analysis of the deposited data

Results flagged for a closer look

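The response to infestation differed between the stage with the larva and the stage after its removal, by the test of the difference itself, for 450 probe sets with a higher and 1450 with a lower response at 10 dpa. All values that follow are interactions in log2 units.

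Among the named genes with a higher response at 10 dpa the interaction was 5.30 for seed protein D-29, 4.44 for osmotin 34, 4.36 for class I endochitinase, 4.32 for the LEA storage protein among the gained rises, 4.30 for PR1, 4.20 for PR protein class 10, 4.15 for AOX1, 4.05 for ATBCB, 3.92 for acidic chitinase and 3.90 for ERF110. The interaction was also positive at 3.23 for AAT1, 3.18 for the GDSL-motif lipase among the lost falls, 3.12 for the AP2 domain factor, 3.07 for ATGOLS2, 3.05 for ATGSTU23, 2.93 for MEE3, 2.84 for WRKY51, 2.62 for the LEA storage protein among the grown rises and 2.60 for the GDSL-motif lipase that was the shrunk fall. Smaller positive values were 2.38 for AOS, 2.08 for TIFY10A, 1.97 for RD26, 1.92 for 1,3-beta-glucanase, 1.82 for YLS9 and 1.71 for growth-regulating factor 1.

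Among those with a lower response the interaction was −6.73 for CESA8, −6.48 for alpha tubulin 1, −6.39 for ATLP-1 among the gained falls, −6.31 for CKX5, −6.28 for FLA6 among the gained falls, −6.20 for arabinogalactan protein 3, −6.05 for ATLP-1 among the deepened falls, −5.99 for XYL4, −5.99 for alpha-expansin 2 and −5.91 for the xl1 gene. It was further −5.84 for beta-tubulin 1, −5.82 for ATEXPA10, −5.75 for FLA6 among the reversals, −5.49 for profilin, −5.21 for the putative thaumatin, −4.77 for IRX3, −4.70 for isocitrate lyase, −4.58 for pectate lyase, −4.22 for histone H2A and −4.14 for histone H2B. Next in size were −4.14 for GAMMA-TIP, −4.09 for polygalacturonase, −4.04 for FLA19, −3.86 for ATP synthase CF1 beta subunit, −3.81 for ARF16, −3.77 for xyloglucan:xyloglucosyl transferase, −3.74 for SUS1, −3.71 for HSP17.8-CI, −3.69 for the ribosomal protein S23-like probe set and −3.68 for ATEXPA8. These were followed by −3.53 for the dihydroflavonol 4-reductase family member, −3.52 for ATHSP22.0, −3.36 for acid phosphatase, −3.32 for BLH1, −3.26 for MAP kinase-like protein, −3.25 for ADH1, −3.24 for alcohol dehydrogenase 2c, −3.23 for HSP21, −3.22 for CHS and −3.18 for RuBisCO activase 1. The smallest values were −3.09 for LHCB4.3, −2.97 for TT5, −2.79 for PIP2B, −2.63 for ACO4, −2.53 for ACO1 and −1.88 for the Kunitz inhibitor.

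A signal was also found outside the main measurement, in the control transcripts. The median BS minus CN difference of the 27 hybridization controls was 0.81 at 5 dpa and 0.80 at 10 dpa, and that of the 42 poly-A controls 1.89 at 5 dpa and 0.99 at 10 dpa.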

How the results depend on the processing

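The test, the 12 arrays alone and an adjusted p of 0.05 left all counts within 1.5 times those reported, whereas scaling and thresholds did not. With quantile normalization, 587 probe sets had a lower response at 10 dpa, DETs numbered 1297 down at 5 dpa and 1367 up and 1352 down at 10 dpa, and there were 305 held falls, 169 lost falls, 43 gained rises, 266 gained falls and 10 reversals. With centring on the hybridization controls, DETs numbered 810 up and 3161 down at 5 dpa and 1204 and 5205 at 10 dpa, with 679 kept rises, 2726 kept falls, 256 held rises, 1096 held falls, 50 lost rises, 26 lost falls, 599 gained falls and 12 reversals. With centring on the poly-A controls, 3903 probe sets had a higher and 642 a lower response at 10 dpa, and DETs numbered 350 up and 18077 down at 5 dpa and 1074 and 6112 at 10 dpa. There were then 330 kept rises, 5869 kept falls, 56 held rises, 3250 held falls, 8 lost rises, 2325 lost falls, 551 gained rises, 99 gained falls, 4 rises that turned to falls and 12 falls that turned to rises. That centring moved the median response of all tested probe sets to −1.99 at 5 dpa. Among named probe sets called at 5 dpa with the deposited scaling or with this centring, 7 changed sign. They were ADH1 (−0.21), the AP2 domain factor (−1.77), AOX1 (−0.28), FLA6 among the reversals (−0.27), ACO4 (−0.05), TT5 (−1.80) and ATHSP22.0 (−1.66). Sign changes of named probe sets called with neither were not counted.

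With a fold of at least 2, 1678 probe sets had a higher and 2733 a lower response at 10 dpa, DETs numbered 2624 up and 2221 down at 5 dpa and 3687 and 4476 at 10 dpa, and there were 2149 kept rises, 1944 kept falls, 1176 held rises, 736 held falls, 198 lost rises, 79 lost falls, 652 gained rises, 1277 gained falls, 52 rises that turned to falls and 2 falls that turned to rises. Without a fold threshold these were 5907 and 5737, 5709 and 7736, 8253 and 7852, 4703, 5812, 3106, 3486, 360, 796, 1939, 1040, 405 and 528 in the same order. From the calls at both stages alone, 247 rises and 56 falls would count as lost and 883 rises and 2211 falls as gained.

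Leaving out 1 array at a time gave 444 to 467 higher and 1427 to 1491 lower interactions, 86 to 94 lost rises, 9 to 13 lost falls, 187 to 202 gained rises and 984 to 1033 gained falls. Of the 77 named probe sets, 71 had a called interaction. These calls held whichever array was left out, except that of growth-regulating factor 1 without replicate 1 of CN at 5 dpa (1.57). With quantile normalization 13 of them were lost. CN and BS came from different plots, so replicate numbers name arrays only. Deviations of same-numbered arrays correlated at −0.24 to 0.037 at 5 and 10 dpa, and the fit with the replicate number as a block again called 450 higher and 1450 lower interactions. The number of arrays and the centring per probe set limit what can be said of weakly expressed genes.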
